A study of Mus musculus with 12 samples.

Results

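Antigen presentation depends on the genes of the major histocompatibility complex (MHC) and on the proteasome. The proteasome cuts cytosolic proteins into peptides, class I molecules carry these peptides to the surface of nearly all cells for CD8 T cells, and class II molecules carry peptides from endosomes to CD4 T cells. Class II is made mainly by B cells, dendritic cells and macrophages, mouse T cells make little of it, and interferon-γ raises class I, class II and the inducible proteasome subunits in many cell types. The genes described here were the endogenous probes of a metabolic pathway panel with symbols that begin with H2- or with Psm followed by a letter from a to g, together with any B2m, Tap, Cd74, Ciita, Nlrc5 or Erap gene. Of the 748 endogenous genes, 20 met this rule, 12 of them H2 genes and 8 of them proteasome genes. They comprised 7 class I chains, 4 class II genes, 2 genes of the inducible proteasome, 4 of the constitutive core, 2 of the regulatory particle, and H2-Ke6. H2-Ke6 lies in the H2 region but encodes a hydroxysteroid dehydrogenase and has no known role in antigen presentation.

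RNA came from T cells taken with CD90.2 beads from subcutaneous tumors of the mouse pancreatic cancer line KPC-Luc in female C57BL/6 mice. Their age was not used here. The control group, Scram+IgG, received scrambled peptide and isotype antibody, and ANT008+IgG received ANT008, a peptide that blocks the receptors of vasoactive intestinal peptide, with isotype antibody. Scram+aPD-1 received scrambled peptide with an antibody to the T cell checkpoint receptor PD-1, and ANT008+aPD-1 received both agents. Each of the 4 groups had 3 mice, with 10 µg of peptide daily and 200 µg of antibody every 3 days over 10 days. The nCounter assay counts a barcode on each bound RNA molecule, and each mouse filled a lane of its own. The RNA is that of a whole isolate, so fewer cells of a type and less RNA per cell cannot be told apart.

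The 20 genes together gave 410 to 206518 counts per lane, out of endogenous totals of 5776 to 1486646. Their share of the endogenous counts was lowest in Scram+IgG mouse 2, at 6.92% (Wilson 95% interval 6.82% to 7.02%), and highest in ANT008+IgG mouse 1, at 14.9% (14.8% to 14.9%). In the ANT008+aPD-1 mice it was 7.10% (6.46% to 7.79%), 12.5% (12.3% to 12.6%) and 11.4% (11% to 11.8%), within the range of the other groups. These intervals cover counting error only. No background was subtracted from these shares, and background weighs most in shallow lanes. At or below the background defined in the next paragraph were 79.1% of all endogenous genes in ANT008+aPD-1 mouse 1 and 52.3% in mouse 3. In the other lanes it was 13.4% to 30.9%. The 7.10% of ANT008+aPD-1 mouse 1 therefore cannot be read as a low share of these genes. In the count file the word FLAG stands, with no reason, over the column of ANT008+IgG mouse 1 and over that of Scram+IgG mouse 1, and both lanes were kept. H2-Aa, H2-D1, H2-Eb1 and H2-K1 supplied between 63.9% and 83.3% of the counts of the 20 genes in a lane. These are shares of counts, because probes differ in efficiency and counts of different genes are not levels on a common scale.

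A gene was taken as detected in a lane when its count exceeded the background, the mean plus 2 SD of the negative control probes of that lane. The lanes of ANT008+aPD-1 mice 1 and 3 were the shallowest, with 5776 and 24813 endogenous counts, and 11 and 6 of the 20 genes were at or below background there. In the other lanes between 1 and 4 of the 20 genes were. Of the 20 genes, 9 were above background in all 12 lanes and 19 in at least 3 lanes, which admitted them to the test. H2-Q1 was above background in 0 lanes, with raw counts from 1 to 21. Counts were divided by a lane size from the detected housekeeping genes, and the results are given below as scaled counts. A scaled count of 358 in ANT008+aPD-1 mouse 1 and of 149 in mouse 3 therefore corresponds to the background of the lane, against 3.42 to 46.3 in the other lanes.

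No member passed the test in any comparison. An FDR is a p adjusted for the number of genes tested, and an FDR below 0.1 was the threshold. Between ANT008+aPD-1 and Scram+IgG, 0 of the 19 tested members had an FDR below 0.1 in edgeR's quasi-likelihood test, as did 0% of all 640 tested genes. At an unadjusted p below 0.05 there were 2 members, H2-Q2 and H2-Q10, against 12.8% of all tested genes. DESeq2 called 2 members in this comparison, against 4.69% of all tested genes, limma's voom with sample weights called 2, against 24.4%, and limma on log2 values called 0. For each agent alone, edgeR called 0 members. At an unadjusted p below 0.05 there were 0 members in each, while 0.469% of all tested genes reached that level for ANT008 alone and 1.09% for anti-PD-1 alone. DESeq2 and limma on log2 values called 0 members in these comparisons, and voom called 0 for ANT008 alone, where it called 6.88% of all tested genes, and 1, H2-Q10, for anti-PD-1 alone, where it called 22.3%. The 3 comparisons share the Scram+IgG mice.

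The classical class I chains H2-K1 and H2-D1, which present peptides to CD8 T cells, differed more among mice of a group than between groups. In mice 1, 2 and 3 of each group in turn, H2-K1 had scaled counts of 5493, 3225 and 3667 in Scram+IgG, and 4661, 9202 and 2625 in ANT008+IgG. They were 7378, 2914 and 11434 in Scram+aPD-1 and 3244, 4525 and 10144 in ANT008+aPD-1. Each treated group held a mouse well above every control mouse and a mouse below the highest control, so all groups overlapped. For ANT008+aPD-1 over Scram+IgG the log2 fold change was 0.53 (standard error 0.62, edgeR FDR = 0.732), and without ANT008+aPD-1 mouse 3 it was -0.08. For H2-D1 the scaled counts were 6008, 2642 and 4264 in Scram+IgG, 6050, 4252 and 4345 in ANT008+IgG, 6293, 4351 and 4242 in Scram+aPD-1, and 1730, 5581 and 3971 in ANT008+aPD-1. The lowest H2-D1 value of the 12 was that of ANT008+aPD-1 mouse 1, where it rests on 48 raw counts. With the combination H2-D1 had a log2 fold change of -0.19 (standard error 0.47, edgeR FDR = 0.895), and the groups overlapped. That fold change was 0.15 without ANT008+aPD-1 mouse 1 and -0.59 without ANT008+aPD-1 mouse 2.

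**Figure D1:**
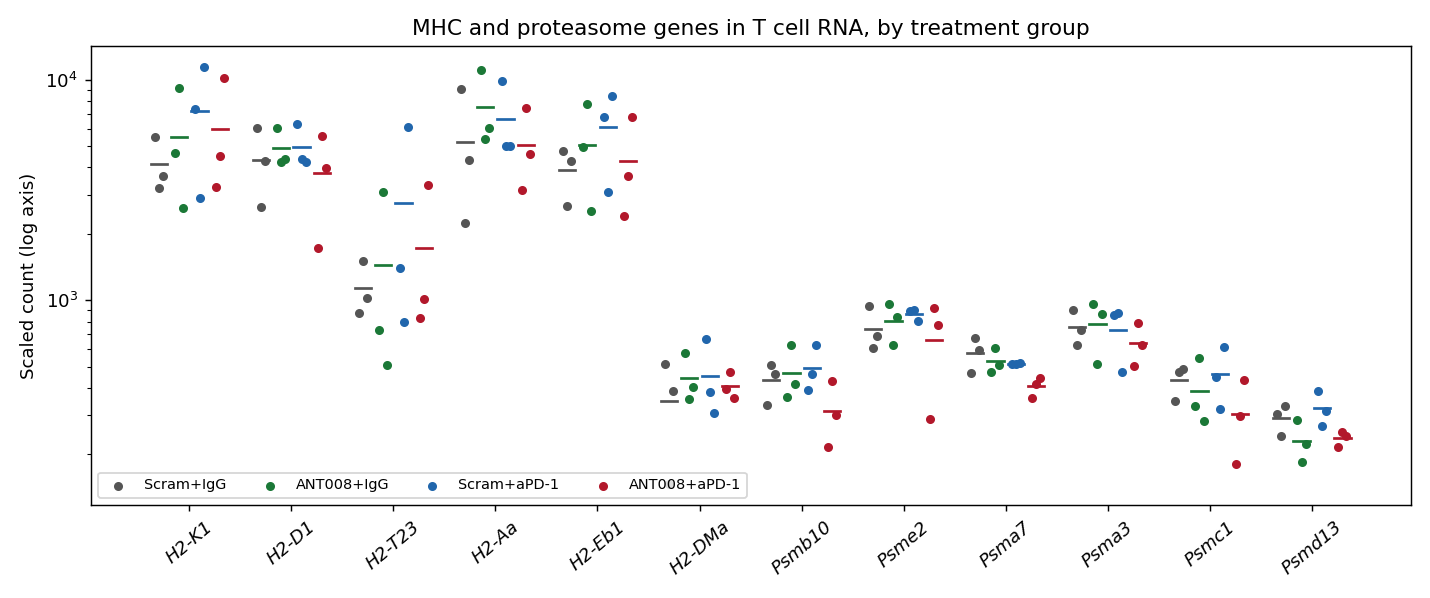
Scaled counts (log axis) of 12 MHC and proteasome genes in each mouse, with a bar at the mean of the 3 mice of a group and colors for the 4 groups. Each treated group overlaps Scram+IgG for every gene shown except Psma7, for which the ANT008+aPD-1 mice, at 360 to 445, lie below the Scram+IgG mice, at 468 to 675.

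The non-classical chain H2-T23, which encodes Qa-1, a ligand of the NKG2A receptor, had the widest spread of the abundant members. Its scaled counts were 871, 1503 and 1019 in Scram+IgG and 730, 3082 and 507 in ANT008+IgG. They were 1406, 797 and 6070 in Scram+aPD-1 and 829, 1012 and 3333 in ANT008+aPD-1, so that each treated group had a mouse above every control and a mouse below every control. Its log2 fold change was 0.62 with the combination (standard error 0.85, edgeR FDR = 0.798), or -0.29 without ANT008+aPD-1 mouse 3. It was 0.35 with ANT008+IgG (standard error 0.85, edgeR FDR = 0.999) and 1.28 with Scram+aPD-1 (standard error 0.86, edgeR FDR = 0.988). Without the highest mouse of the treated group these became -0.87 and -0.04. H2-M3, which presents N-formylated peptides, had scaled counts between 72.1 and 570, with group means of 211 ± 7.86 (SD, n = 3) for Scram+IgG and 244 ± 181 (SD, n = 3) for ANT008+aPD-1. The lowest of these, in ANT008+aPD-1 mouse 1, came from 2 raw counts and was below background.

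Between ANT008+aPD-1 and Scram+IgG, the members with the largest fitted differences, H2-Q2 and H2-Q10, had low counts. The raw counts of H2-Q2, a class I gene of the Q region, were 47, 15 and 37 in Scram+IgG, 38, 22 and 9 in ANT008+IgG, 85, 30 and 13 in Scram+aPD-1, and 8, 16 and 11 in ANT008+aPD-1. The backgrounds of the ANT008+aPD-1 lanes were 9.94, 17.5 and 12.4 counts, so H2-Q2 passed it in 0 of these 3 lanes. For H2-Q10, a secreted class I chain made in liver, the raw counts were 36, 6 and 12 in Scram+IgG, 32, 3 and 4 in ANT008+IgG, 47, 15 and 6 in Scram+aPD-1, and 3, 14 and 4 in ANT008+aPD-1. H2-Q10 likewise passed background in 0 lanes of the combination and in 1 lane of the controls. Division by lane sizes of 0.0277 and 0.0831 turned these counts into scaled values of 288 and 132 for H2-Q2, and 108 and 48.1 for H2-Q10, in mice 1 and 3. All 4 values are below the scaled background of their lanes. The edgeR FDR was 0.309 for each gene. No fold of either gene with the combination is given for this reason, but both genes enter the medians and counts over the members below. H2-Q10 is the 1 tested member whose scaled counts were higher in every ANT008+aPD-1 mouse than in every Scram+IgG mouse, a pattern shown by 7.81% of all tested genes.

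**Figure D2:**
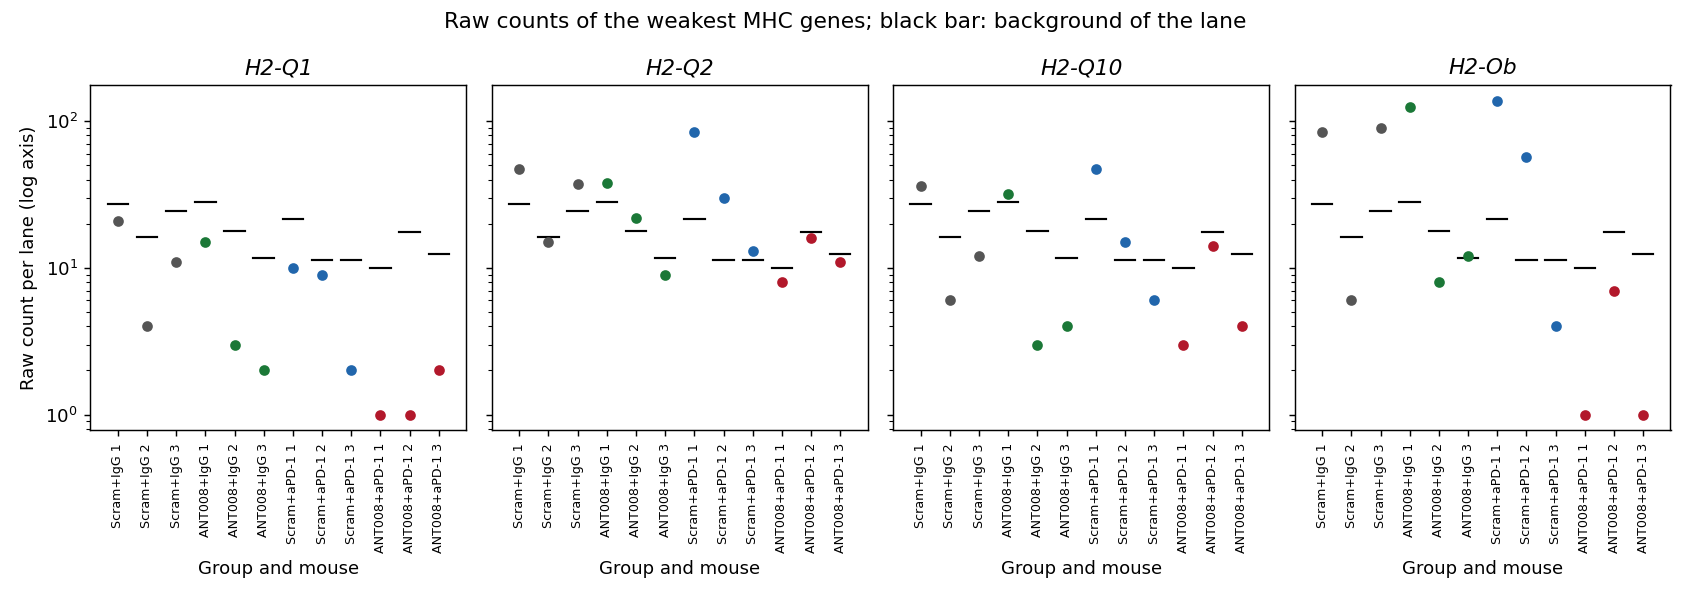
Raw counts per lane (log axis) of H2-Q1, H2-Q2, H2-Q10 and H2-Ob, with a black bar at the background of each lane and the 12 mice along the horizontal axis in the same group colors, gray for Scram+IgG, green for ANT008+IgG, blue for Scram+aPD-1 and red for ANT008+aPD-1. Every ANT008+aPD-1 point lies below its bar, and every H2-Q1 point does.

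Class I genes form a family of closely related sequences, and a probe may bind transcripts of a relative. The match of the 7 class I targets to the transcripts of other class I genes was not analysed here, so the identity of each class I signal is uncertain.

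The class II chains H2-Aa and H2-Eb1 were among the most counted members although the cells were isolated as T cells. H2-Aa encodes the alpha chain of the I-A molecule. Its scaled counts were 9089, 2245 and 4317 in Scram+IgG, 11073, 5374 and 6028 in ANT008+IgG, 9843, 4979 and 4980 in Scram+aPD-1, and 3172, 7413 and 4597 in ANT008+aPD-1. The control mice spanned a wider range than the mice given the combination, and H2-Aa differed between them by a log2 fold change of -0.04 (standard error 0.56, edgeR FDR = 0.981), or 0.63 without Scram+IgG mouse 1. H2-Eb1 encodes the beta chain of I-E, and C57BL/6 mice transcribe it but lack a functional alpha chain to pair with it. Its scaled counts were 4742, 2686 and 4256 in Scram+IgG, 4947, 7758 and 2525 in ANT008+IgG, 6788, 3101 and 8467 in Scram+aPD-1, and 2415, 3666 and 6799 in ANT008+aPD-1. In every treated group the H2-Eb1 values reached both below the highest control mouse and above it. With the combination H2-Eb1 had a log2 fold change of 0.14 (standard error 0.54, edgeR FDR = 0.929). Without ANT008+aPD-1 mouse 3 it was -0.35, and without ANT008+aPD-1 mouse 1 it was 0.42.

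H2-DMa encodes a chain of the DM molecule, which exchanges peptides on class II. Its scaled counts were 516, 146 and 388 in Scram+IgG, 576, 355 and 403 in ANT008+IgG, 667, 382 and 307 in Scram+aPD-1, and 396, 472 and 361 in ANT008+aPD-1. The groups overlapped, and the log2 fold change with the combination was 0.24 (standard error 0.47, edgeR FDR = 0.860). Without Scram+IgG mouse 2 it was -0.13, and without Scram+IgG mouse 1 it was 0.63. The value of ANT008+aPD-1 mouse 1 came from 11 raw counts, just above the background of 9.94. H2-Ob encodes a chain of DO, a B cell protein that moderates DM. Its raw counts were 84, 6 and 90 in Scram+IgG, 125, 8 and 12 in ANT008+IgG, 138, 57 and 4 in Scram+aPD-1, and 1, 7 and 1 in ANT008+aPD-1. It was detected in 0 lanes of the combination and in 2 of the 3 lanes of each other group. With Scram+aPD-1 its scaled counts, 24.6, 17.3 and 16.4, were all above the 13.7, 5.71 and 14.1 of the controls, but the value of mouse 3 came from 4 raw counts, below background. It was the 1 member higher without overlap with Scram+aPD-1, where 2.97% of all tested genes were. Its log2 fold change there was 0.79 (standard error 0.53, edgeR FDR = 0.988).

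The ratio of summed class II to summed class I counts within a lane does not depend on how lanes are scaled. It was 1.14, 0.668 and 0.979 in the Scram+IgG mice, 1.42, 0.791 and 1.17 in ANT008+IgG, 1.12, 1.03 and 0.615 in Scram+aPD-1, and 0.954, 1.02 and 0.651 in ANT008+aPD-1. The 4 groups overlapped, and on the log2 scale ANT008+aPD-1 differed from Scram+IgG by -0.08, against a pooled SD within groups of 0.41. The ratios of inducible to constitutive catalytic proteasome subunits were not analysed here.

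Markers of cells that make class II were counted in these isolates too. Of 11 monocyte and macrophage markers, 4 were measured, Cd14, Cd68, Itgam and Cd163, with Cd68 the most counted. Their summed scaled count was 1351, 327 and 537 in the Scram+IgG mice, 1264, 1191 and 477 in ANT008+IgG, 1838, 729 and 1480 in Scram+aPD-1, and 1874, 1468 and 2250 in ANT008+aPD-1. No background was subtracted from these sums. Those of ANT008+aPD-1 mice 2 and 3 lay above every control mouse. That of ANT008+aPD-1 mouse 1 rests on 52 raw counts, with 2 of the 4 markers at or below background, so its place relative to the controls is uncertain. H2-Aa in the ANT008+aPD-1 mice overlapped the controls. Of 7 B cell markers, 3 were measured, Ms4a1, Blk and Btk. Btk, which macrophages also express, was the most counted. The summed scaled count of the B cell markers was 115, 43.8 and 69.9 in Scram+IgG, 120, 74.0 and 75.8 in ANT008+IgG, 167, 94.9 and 184 in Scram+aPD-1, and 396, 130 and 253 in ANT008+aPD-1. In ANT008+aPD-1 mouse 1 all 3 were at or below background, so its sum is no measure of B cells. The sum of ANT008+aPD-1 mouse 3 rests on 21 raw counts and is no measure either. There Btk alone passed background, with 13 counts against 12.4. Ms4a1, which encodes CD20 and marks B cells, was above background in 3 lanes. These were the lanes of Scram+IgG mouse 3 and Scram+aPD-1 mice 1 and 2, with 26, 32 and 15 raw counts. No B cell marker had a count of 0 in any lane, but a count at or below background is not detection. Of 7 dendritic cell markers, Flt3 was measured, with at most 45 raw counts. The 9 T cell markers measured, of 12, were above background in every lane except ANT008+aPD-1 mouse 1, where 6 of 9 were, so the isolates carried T cell RNA in each mouse. Their summed scaled count, with Cd3g the most counted over all lanes, was 4771, 823 and 808 in Scram+IgG, 3156, 1671 and 1561 in ANT008+IgG, 3062, 1643 and 2537 in Scram+aPD-1, and 4325, 3542 and 5138 in ANT008+aPD-1. On these sums, also without background subtraction, control mouse 1 stood far above the other controls and among the mice given the combination. The T cell sum of ANT008+aPD-1 mouse 1 rests on 120 raw counts. The part of these cell types in the class II counts was not tested.

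Psmb10, the catalytic core subunit that interferon-γ puts in place of a constitutive one, had scaled counts of 333, 508 and 462 in Scram+IgG and 364, 625 and 417 in ANT008+IgG. They were 393, 462 and 623 in Scram+aPD-1 and 216, 428 and 301 in ANT008+aPD-1. Mice 1 and 3 of the combination lay below every control mouse and mouse 2 among them, so the groups overlapped, and the lowest value came from 6 raw counts, below background. The fitted log2 fold change was -0.40 (standard error 0.37, edgeR FDR = 0.657). Psme2, a subunit of the PA28 activator that opens the proteasome under interferon-γ, had scaled counts of 938, 604 and 687 in Scram+IgG, 959, 625 and 840 in ANT008+IgG, 897, 906 and 803 in Scram+aPD-1, and 288, 918 and 770 in ANT008+aPD-1. The low Psme2 value of ANT008+aPD-1 mouse 1 came from 8 raw counts, below background. Psme2 had a log2 fold change of -0.13 (standard error 0.41, edgeR FDR = 0.927), or 0.19 without ANT008+aPD-1 mouse 1.

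Among the members above background in all lanes, Psma7 was the 1 whose ANT008+aPD-1 and Scram+IgG mice did not overlap. Psma7 encodes an alpha-ring subunit, part of the ring that gates entry to the core. Its scaled counts were 468, 675 and 594 in Scram+IgG, 473, 606 and 509 in ANT008+IgG, 515, 513 and 520 in Scram+aPD-1, and 360, 417 and 445 in ANT008+aPD-1. Every ANT008+aPD-1 mouse was lower than every Scram+IgG mouse, a pattern shown by 5.78% of all tested genes. The lowest value rests on 10 raw counts, barely above the 9.94 of the background. For Psma7 the log2 fold change was -0.49 (standard error 0.29, edgeR FDR = 0.468), which did not pass the test. Scaling by the positive control probes moved Psma7 along with the median over all tested genes, which went to -4.37. Psma7 had log2 fold changes of -0.13 with ANT008+IgG (standard error 0.28, edgeR FDR = 0.999) and -0.16 with Scram+aPD-1 (standard error 0.28, edgeR FDR = 0.988).

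Psma3, another alpha-ring subunit, had scaled counts of 907, 627 and 731 in Scram+IgG, 960, 515 and 868 in ANT008+IgG, 855, 879 and 471 in Scram+aPD-1, and 505, 786 and 626 in ANT008+aPD-1. All groups overlapped, and the log2 fold change with the combination was -0.22 (standard error 0.38, edgeR FDR = 0.832). The beta-ring subunits Psmb1 and Psmb3, which are not catalytic, had log2 fold changes of -0.21 and 0.06 with the combination. With the combination Psmb1 was detected in mouse 2 alone, with 3 raw counts in each of the other lanes, which limits its fold. Psmb3 scaled counts ran from 256 to 1762.

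The regulatory particle recognizes and unfolds tagged proteins. Its ATPase Psmc1 had scaled counts of 348, 472 and 488 in Scram+IgG, 332, 546 and 283 in ANT008+IgG, 448, 322 and 611 in Scram+aPD-1, and 180, 297 and 433 in ANT008+aPD-1. The groups overlapped, the fold was -0.48 on the log2 scale (standard error 0.41, edgeR FDR = 0.617), and the lowest value came from 5 raw counts, below background. Its lid subunit Psmd13 had scaled counts of 306, 242 and 330 in Scram+IgG, 286, 184 and 222 in ANT008+IgG, 389, 269 and 316 in Scram+aPD-1, and 216, 252 and 241 in ANT008+aPD-1. ANT008+aPD-1 mouse 2 lay above the lowest control mouse, the value of mouse 1 came from 6 raw counts, below background, and the log2 fold change was -0.29 (standard error 0.31, edgeR FDR = 0.711). H2-Ke6 had scaled counts of 75.8, 100 and 63.7 in Scram+IgG, 82.3, 62.0 and 108 in ANT008+IgG, 47.2, 64.0 and 82.0 in Scram+aPD-1, and 36.0, 68.6 and 72.2 in ANT008+aPD-1. Its log2 fold change was -0.34 with Scram+aPD-1 (standard error 0.35, edgeR FDR = 0.988), and the groups overlapped. In ANT008+aPD-1 mice 1 and 3 it rested on 1 and 6 raw counts, below background.

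Counted without overlap, 0 members were lower and 0 were higher with ANT008+IgG than with Scram+IgG, where 2.97% of all tested genes were higher and 0.469% lower. With Scram+aPD-1, 0 members were lower, against 1.09% of all tested genes. Over the 19 members tested, the median log2 fold change was 0.35 with ANT008+IgG, 0.34 with Scram+aPD-1 and -0.13 with the combination, beside 0.11, 0.15 and 0.12 over all tested genes. Positive control scaling turned the first 2 negative, to -0.61 and -0.65, where all tested genes moved to -0.66 and -0.83. With TMM scaling these 2 medians were 0.11 and 0.16, beside 0.02 and 0.02 over all tested genes. With the total endogenous count they were 0.15 and 0.06, beside 0.03 and -0.07. With ANT008+IgG 16 of the 19 members had a log2 fold change above 0, as did 427 of all 640 tested genes. With Scram+aPD-1 the numbers were 15 and 401, and with the combination 8 and 363. By role, the 6 tested class I chains had a median of 0.58 with the combination, a value that includes H2-Q2 and H2-Q10. The 4 class II genes had a median of 0.05, the 4 constitutive core subunits -0.22, the pair of inducible subunits -0.27 and the pair of regulatory particle subunits -0.39. In the same order, these medians were 0.42, 0.45, 0.20, 0.12 and -0.26 for ANT008 alone. For anti-PD-1 alone they were 1.00, 0.51, -0.04, 0.20 and 0.11. These class I medians also include the low counts of H2-Q2 and H2-Q10, which for anti-PD-1 alone were at 1.31 and 1.19. The 6 class I and 4 class II genes were all above 0 with each agent alone, at an edgeR FDR of 0.999 and 0.988. Single mice weighed on this, since without ANT008+IgG mouse 2 H2-K1 was at -0.18, H2-T23 at -0.87 and H2-Eb1 at -0.06, and without Scram+aPD-1 mouse 3 H2-T23 was at -0.04 and H2-K1 at 0.32.

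The position of the members below all tested genes with the combination was not stable. The difference of the medians was -0.25 with housekeeping scaling, -0.19 with TMM scaling and -0.23 with the total endogenous count, but 0.20 with positive control scaling. It was 0.14 after background subtraction and 0.25 without ANT008+aPD-1 mice 1 and 3, a fit that rests on ANT008+aPD-1 mouse 2 in that group and assumes that it varies like the other groups.

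Set against each single agent, the combination gave 0 members at an FDR below 0.1 in edgeR in both comparisons. Against ANT008+IgG, 2 members had an unadjusted p below 0.05, again H2-Q2 and H2-Q10, where 7.81% of all tested genes did. Against Scram+aPD-1 there were 0 members, where 6.25% of all tested genes reached that level. The median member log2 fold change was -0.27 relative to ANT008 alone and -0.38 relative to anti-PD-1 alone, with -0.04 over all tested genes in each. Without overlap, Psma7 was lower with the combination than with ANT008 alone, as were 7.34% of all tested genes, and H2-Q10, at background, was higher, as were 6.25%. Psma7 and Psmd13 were lower than with anti-PD-1 alone, as were 7.34% of all tested genes, and 0 members were higher, where 4.53% of all tested genes were. The edgeR FDR of Psmd13 there was 0.751. The interaction of the agents, the difference between the combination and the sum of the single effects, gave 0 members in edgeR, 0 members at an unadjusted p below 0.05 and 1.41% of all tested genes at that level. Its median over the members was -0.57, beside -0.17 over all tested genes. Above 0 were 2 of the 19 members, H2-Q2 and H2-Q10, and 257 of all 640 tested genes. Both of these members were at background in the ANT008+aPD-1 lanes. Without ANT008+aPD-1 mice 1 and 3, the member median was above that of all tested genes in these 3 comparisons. It was -0.29 beside -0.39 against ANT008+IgG, -0.31 beside -0.36 against Scram+aPD-1, and -0.35 beside -0.48 in the interaction. That fit rests on ANT008+aPD-1 mouse 2 in that group. DESeq2, voom and limma on log2 values called 0 members in these 3 comparisons, where the most called among all tested genes was 0.781%, by DESeq2 against each single agent and by voom against ANT008 alone.

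Other genes of the pathway were measured on the same panel. Of 20 further antigen processing genes, Ubb was on the panel as a housekeeping gene. It served to size the lanes and was not tested. Ctss, Ctsl and Ctsd, the lysosomal proteases cathepsin S, L and D, were measured as endogenous genes. Cathepsin S trims the class II invariant chain. In edgeR 0 of these 3 were called in any comparison, and their log2 fold changes with the combination were 0.55, 0.44 and 0.06. Of 18 genes of interferon-γ and its signal, 4 were measured and 0 were called by edgeR. Irf1, a transcription factor that acts on class I and inducible proteasome genes, had a log2 fold change of -0.23 (standard error 0.34, edgeR FDR = 0.813) with the combination. Ifng itself had 1.55 (standard error 0.95, edgeR FDR = 0.473), Jak2, a kinase of its receptor, 0.72 (standard error 0.59, edgeR FDR = 0.612) and Cxcl9, an interferon-γ target, -0.04 (standard error 0.58, edgeR FDR = 0.981), and the median of the 4 genes was 0.34.

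Among the 16 members above background in at least 9 lanes, the spread between mice of a group was widest for H2-T23 and Psmb3, whose probe targets are GC-rich. Each probe reads 100 bases of a transcript, and the GC content of the member targets ran from 43% for Psma3 to 68% for H2-K1, with a median of 50.5%, beside 48% over all 748 endogenous targets. In ANT008+IgG mouse 2, the log2 scaled counts of the GC-rich members stood above their means over the 12 lanes, by 0.87 for H2-K1, 1.22 for H2-T23 and 1.60 for Psmb3. In Scram+aPD-1 mouse 3 the deviations were 1.18, 2.20 and 1.62, and in ANT008+aPD-1 mouse 3 they were 1.01, 1.33 and 0.98. In ANT008+IgG mouse 3 the same genes stood at -0.94, -1.38 and -0.96, and in Scram+aPD-1 mouse 2 at -0.79, -0.73 and -0.74. In ANT008+aPD-1 mice 1 and 2 they stood at -0.64, -0.68 and -0.08, and at -0.16, -0.39 and -1.16. Each treated group thus held a mouse with all 3 genes above their means and a mouse with all 3 below. Not every GC-rich member did so, since Psmb10, at 58% GC, stood at 0.60, 0.60 and -0.45 in the 3 mice where the others were high. Nor was it confined to them, since H2-M3, at 51% GC, stood at 1.03, 1.26 and 0.86 in these mice. Psma3, the member with the lowest GC content, stood at -0.46, -0.59 and -0.18 there.

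**Figure D3:**
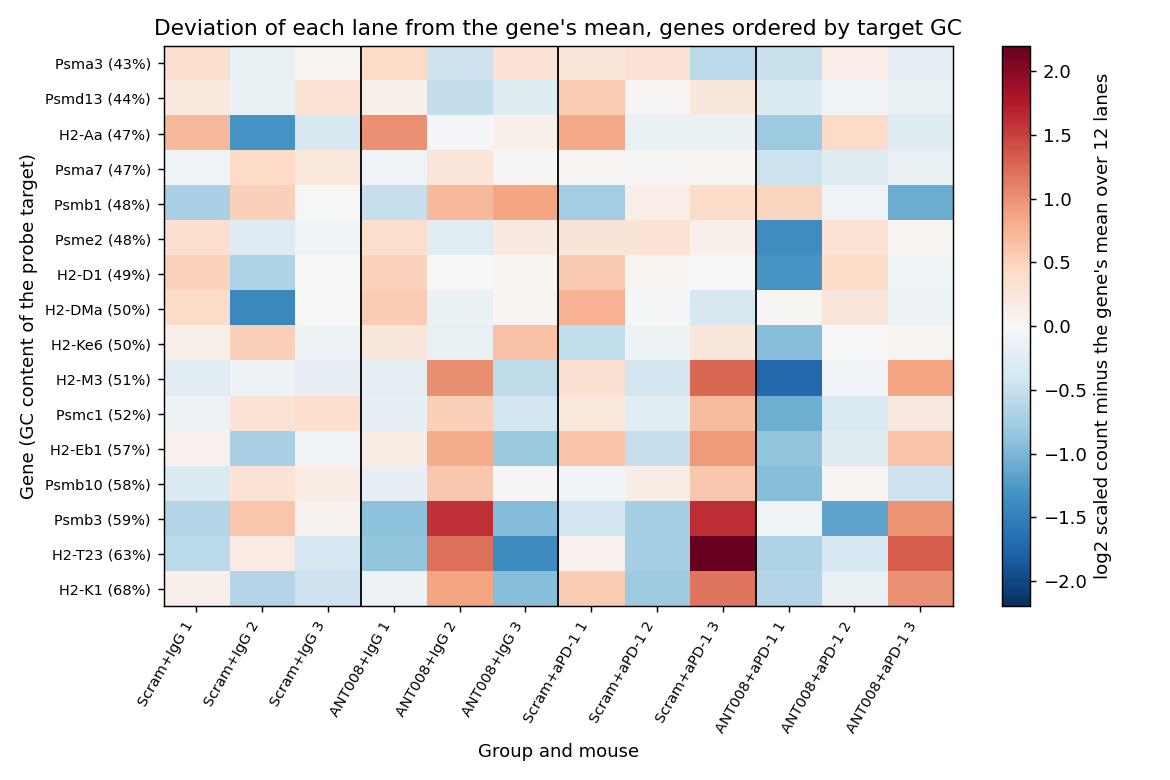
Log2 scaled count minus the mean of the gene over the 12 lanes (color scale) for the 16 members above background in at least 9 lanes, with genes ordered from low to high GC content of the probe target and lanes grouped by treatment. In ANT008+IgG mouse 2, Scram+aPD-1 mouse 3 and ANT008+aPD-1 mouse 3 the color turns red toward most GC-rich genes, up to 2.20 for H2-T23, and in ANT008+IgG mouse 3 it turns blue, down to -1.38.

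Ratios of raw counts within a lane need no scaling, but they include background and counting error. H2-K1, with 68% GC, was counted 0.914, 1.22 and 0.860 times as often as H2-D1, with 49% GC, in the Scram+IgG mice. The ratio was 0.770, 2.16 and 0.604 in ANT008+IgG, 1.17, 0.670 and 2.70 in Scram+aPD-1, and 1.88, 0.811 and 2.55 in ANT008+aPD-1. For Psmb3 over Psma3 it was 0.402, 1.40 and 0.823 in Scram+IgG, 0.317, 3.38 and 0.338 in ANT008+IgG, 0.504, 0.388 and 3.74 in Scram+aPD-1, and 1.07, 0.326 and 1.81 in ANT008+aPD-1. In ANT008+aPD-1 mouse 1, where the background was 9.94, the first ratio rests on 90 and 48 raw counts. The second rests there on 15 and 14. Both ratios were high in ANT008+IgG mouse 2, Scram+aPD-1 mouse 3 and ANT008+aPD-1 mouse 3. Across the 133 other genes above background in all lanes, Spearman's rho between target GC content and the deviation of the lane was 0.30 in ANT008+IgG mouse 2, 0.49 in Scram+aPD-1 mouse 3 and 0.21 in ANT008+aPD-1 mouse 3. It was 0.20 in Scram+IgG mouse 2, where H2-K1 stood at -0.64, H2-T23 at 0.18 and Psmb3 at 0.61. In Scram+IgG mouse 3 the rho was 0.10. This rho was -0.28 in Scram+IgG mouse 1 and -0.39 and -0.38 in ANT008+IgG mice 1 and 3. It was -0.00 and -0.20 in Scram+aPD-1 mice 1 and 2, and -0.13 and -0.23 in ANT008+aPD-1 mice 1 and 2. These are correlations across genes of a lane, which share that lane and its depth and are not independent replicates. The 3 lanes where the ratios were high had endogenous totals of 202511, 93480 and 24813, and those of ANT008+IgG mouse 3 and ANT008+aPD-1 mice 1 and 2 were 100293, 5776 and 268678. The part of depth in the differences between mice was not tested. An offset for GC content, chosen after the pattern was seen, is described below.

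The targets of 3 GC-rich and 3 GC-poorer members are shown as examples of high and low GC content. Capitals mark runs of at least 4 G or C bases. Each has a reading frame without a stop, and of the H2-K1 target the 61 bases from its first ATG are given.
H2-K1: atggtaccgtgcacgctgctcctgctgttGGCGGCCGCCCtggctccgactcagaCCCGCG
H2-T23: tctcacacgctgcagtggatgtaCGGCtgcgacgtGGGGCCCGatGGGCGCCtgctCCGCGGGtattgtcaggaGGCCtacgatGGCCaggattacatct
Psmb3: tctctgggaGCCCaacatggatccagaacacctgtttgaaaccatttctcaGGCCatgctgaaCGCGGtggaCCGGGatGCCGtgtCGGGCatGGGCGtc
Psma3: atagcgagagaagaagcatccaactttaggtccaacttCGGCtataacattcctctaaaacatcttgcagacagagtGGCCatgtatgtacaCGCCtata
Psmd13: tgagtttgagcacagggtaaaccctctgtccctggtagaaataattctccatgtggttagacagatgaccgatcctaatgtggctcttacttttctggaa
H2-Aa: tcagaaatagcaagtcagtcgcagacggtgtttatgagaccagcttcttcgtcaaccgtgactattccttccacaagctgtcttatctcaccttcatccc
The H2-T23 target has 34 of its 100 bases in such runs and the Psmb3 target 32, against 12 for Psma3 and 0 for Psmd13 and H2-Aa. With an offset for GC content fitted in each lane, chosen after the pattern was seen, the SD within groups of the log2 scaled count fell from 1.17 to 0.73 for H2-T23, from 1.16 to 0.82 for Psmb3 and from 0.82 to 0.65 for H2-K1. It was lower for 12 of 16 members, by 0.1 or more for 5 of these, and higher for 3, among them Psma7, from 0.18 to 0.28. Others hardly differed, such as H2-M3, from 0.88 to 0.86, H2-D1, from 0.57 to 0.55, and H2-DMa, from 0.60 to 0.59. The offset was fitted on genes that include members, so part of this fall is by construction. With it edgeR called 0 members in each of the 6 comparisons, and the log2 fold change of H2-T23 with Scram+aPD-1 was 0.84 (standard error 0.56, edgeR FDR = 0.995) in place of 1.28.

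The promoters of class II genes carry a conserved Y box, with the letters CCAAT at its core. The RefSeq promoter windows of GRCm38.p6, from 250 bases before to 50 after a gene's start, were found for 18 of the 20 members. CCAAT on either strand was present for 14 of the 18, namely all 4 class II genes, 5 of 6 class I chains, 3 of 3 constitutive core genes, 1 of 2 regulatory particle genes, 0 of 2 inducible genes and H2-Ke6, and for 41.1% of all 27025 genes with a window. The core of the interferon-stimulated response element, GAAA and again GAAA with any 2 bases between, was present for H2-T23 and Psmb3, and for 3.99% of all genes. TGACNNNGC, the core of the antioxidant response element, was present for H2-K1 and H2-Q10, and for 14.0% of all genes. No match of these motifs overlapped a match of another. Shown are 60 bases of the class II windows around the CCAAT match nearest to the start, with every match in capitals, which reads ATTGG where it lies on the other strand.
H2-Aa, chr17:34287852-34287911, minus strand: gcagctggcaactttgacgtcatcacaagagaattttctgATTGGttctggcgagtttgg
H2-Eb1, chr17:34305792-34305851, plus strand: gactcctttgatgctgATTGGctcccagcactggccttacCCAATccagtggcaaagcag
H2-Ob, chr17:34238808-34238867, plus strand: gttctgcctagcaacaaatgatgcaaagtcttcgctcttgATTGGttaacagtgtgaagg
H2-DMa, chr17:34125280-34125339, plus strand: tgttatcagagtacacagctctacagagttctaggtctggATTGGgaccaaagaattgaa
On that other strand it lay 48 to 44 bases before the start for H2-Aa, 59 to 55 for H2-Eb1 and 57 to 53 for H2-Ob, and H2-Eb1 had a further match on the strand of the gene at 35 to 31. In a window of H2-DMa it lay 198 to 194 bases before the start. A match is a description of the letters and not a measured site.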

How the data were processed

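The authors deposited raw counts per probe and lane from the nCounter instrument, whole numbers without background subtraction or scaling, with the vendor's panel definition, from which the probe targets were read. Mice were grouped by sample titles. Background came from 8 negative control probes, as their mean plus 2 SD. Lanes were sized by Dnajc14, Oaz1 and Ubb (geometric mean), which alone of 20 housekeeping genes passed background in all 12 lanes. Testing by edgeR 4.0.16 covered the 640 endogenous genes detected in 3 or more lanes (quasi-likelihood, R 4.3.3, 4 groups in 1 fit, Benjamini-Hochberg, FDR below 0.1). DESeq2 1.42.0, limma 3.58.1, other scalings and filters, background subtraction and each mouse left out were alternatives. The standard errors derive from the F statistic. Named genes were a list of MHC and proteasome genes plus the 3 members with the smallest p in each direction against Scram+IgG. Members and lists were chosen with earlier results of these data known. Some genes of the marker and pathway lists are not reported here.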

Additional observations from a re-analysis of the deposited data

How the results depend on the processing

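With the combination against Scram+IgG, edgeR's 0 members (2 at an unadjusted p below 0.05) became 2 with DESeq2, of 30 among all 640 tested genes, and 2 with voom with sample weights, of 156, H2-Q2 and H2-Q10 each time. With a mouse left out it was 0 to 2, the higher number without ANT008+aPD-1 mouse 2, of 68 among all genes. Without Scram+IgG mouse 1 edgeR called 84 genes and 0 members. Against ANT008+IgG it was 0 to 1, the higher again without that mouse, of 26. With Scram+aPD-1, voom called 1 member, of 143. The cause was not tested. With a mouse left out, the count was 0 to 0 in the other 4 comparisons, where at most 35 of all tested genes were called, against Scram+aPD-1. Positive control scaling moved the member median log2 fold change to -4.18 for the combination, -0.61 for ANT008+IgG, -0.65 for Scram+aPD-1, -3.73 against ANT008+IgG, -3.65 against Scram+aPD-1 and -2.97 in the interaction. Over all tested genes it moved the medians to -4.37, -0.66, -0.83, -3.71, -3.56 and -2.85. Voom moved the member median to 0.20 for the combination, 0.03 for ANT008+IgG and 0.02 in the interaction, against a spread between mice of 0.30. The cause was not tested. With a mouse left out the medians ran from -0.35 to 0.15 for the combination, 0.24 to 0.35 for ANT008+IgG, 0.20 to 0.52 for Scram+aPD-1, -0.45 to -0.09 against ANT008+IgG, -0.55 to -0.14 against Scram+aPD-1 and -0.61 to -0.24 in the interaction. The class II over class I difference ran from -0.30 to 0.12. Of 1224 values of the named genes under alternatives, 1151 stayed within a standard error of the reported value, 66 did not, 46 of them with positive control scaling, and 7 passed the threshold. Same-numbered mice are different animals, and their deviations correlated between -0.64 and 0.78, with 7 of 18 pairs over 0.1, so the numbers were not taken as pairs. The replicate block left 0 members called in each comparison, with 2 at an unadjusted p below 0.05 and a member median of -0.02 for the combination. H2-Q1, H2-Q2, H2-Q10 and H2-Ob were at or below background in all ANT008+aPD-1 lanes, which limits what can be read from them.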
